A study of Mus musculus with 4 samples.

Results

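The receptor genes Tacr3, Gpr176, Adrb1 and Tnfrsf21 were followed through the cell types of the stria vascularis (SV), the vascular epithelium of the cochlear lateral wall. These 4 genes were found by symbol in the gene lists of all 4 libraries, and each symbol occurred once in the 27998 genes listed for cells and the 48816 listed for nuclei. The samples were 3 captures of whole cells and 1 capture of nuclei, all from CBA/J mice (strain 000656) at postnatal day 30, with no treatment in the labels. Each suspension pooled animals, about 12 for cells and 10 for nuclei as the labels give them, while the study's supplementary methods give fewer mice per cell capture and fewest for the first, so that the spread between captures is the spread between pools. The comparisons were between cell types within captures and between cells and nuclei.

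Tacr3 encodes the neurokinin-3 receptor, a G protein-coupled receptor for the tachykinin neurokinin B (from Tac2) that acts through Gq and phospholipase C. Adrb1 encodes the beta1-adrenergic receptor, which answers norepinephrine and epinephrine through Gs and adenylyl cyclase, and adrenergic control has been described for the potassium-secreting epithelium of the inner ear. Gpr176 is an orphan receptor known from circadian pacemaker neurons, where it couples to Gz, and Tnfrsf21 (death receptor 6, DR6) is a member of the TNF receptor family with a death domain whose ligands include the amyloid precursor protein, App. In the SV, marginal cells form the epithelium that secretes potassium into endolymph, intermediate cells are melanocyte-like, basal cells seal the tissue laterally, and spindle and root cells lie at its borders.

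Tacr3 and Gpr176 were chosen by their level in marginal cells of these same libraries, and the set as a whole was selected with results of these libraries in view, so the levels of all 4 are a description and carry no test. Marginal, intermediate, basal and spindle/root types were named from clusters by markers that did not include the members, and neither the members nor the receptor lists used here were among the variable genes that made the clusters. In cells the 4 types held 131, 1001, 121 and 32 barcodes, and in nuclei 2591, 1473, 653 and 204. All 8 marginal markers were highest in the marginal type in both preparations. The marginal cells also carried RNA of intermediate markers, between 5927 and 9869 CPM (UMIs scaled to a total of 1e+06 per sum) summed over 10 markers per capture, against 20965 to 28925 in intermediate cells and 1802 in marginal nuclei. The total per library was 2811309, 8113494 and 8340882 UMIs (unique molecular identifiers, 1 per captured RNA molecule) in cells and 22332501 in nuclei. Capture 1 held 4 spindle/root cells, under the minimum of 5, and its sum for that type was left out of means. Between 0 and 32 barcodes were shared by any pair of libraries.

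The sequences upstream of the start of the 3 genes detected in the SV types are shown because these genes shared a highest level in marginal cells. Each is the 250 bases before the RefSeq start of the gene (build GRCm38.p6), in lower case and in the direction of transcription, with matches to TGACG, the core of the cAMP response element, in capitals on either strand. The windows are chr3:134828757-134829006 (+) for Tacr3, chr2:118373420-118373669 (-) for Gpr176 and chr17:43016305-43016554 (+) for Tnfrsf21.
Tacr3: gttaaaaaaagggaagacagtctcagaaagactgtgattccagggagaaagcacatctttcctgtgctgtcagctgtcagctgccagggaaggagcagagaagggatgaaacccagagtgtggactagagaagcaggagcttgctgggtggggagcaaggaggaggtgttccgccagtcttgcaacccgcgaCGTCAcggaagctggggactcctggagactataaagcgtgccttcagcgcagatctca
Gpr176: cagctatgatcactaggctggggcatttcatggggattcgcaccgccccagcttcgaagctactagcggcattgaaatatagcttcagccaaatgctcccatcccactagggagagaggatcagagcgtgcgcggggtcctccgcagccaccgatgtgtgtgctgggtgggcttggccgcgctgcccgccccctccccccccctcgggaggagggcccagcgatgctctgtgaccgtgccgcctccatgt
Tnfrsf21: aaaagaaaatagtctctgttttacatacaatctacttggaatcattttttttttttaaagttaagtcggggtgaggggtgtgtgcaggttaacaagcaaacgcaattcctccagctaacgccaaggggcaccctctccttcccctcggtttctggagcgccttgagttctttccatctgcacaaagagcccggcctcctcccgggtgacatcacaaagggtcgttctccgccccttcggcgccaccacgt
The Tacr3 window held 1 match, on the reverse strand, starting at position -58 from the start of the gene, and the Gpr176 and Tnfrsf21 windows held none. The window of Adrb1 (chr19:56721867-56722116) held 1 match at position -90. Of all 32851 windows of this length, 17.8% held TGACG on either strand. The full element TGACGTCA, which contains that core and was in 1.55% of windows, and the estrogen-related receptor site AAGGTCA, in 4.08%, were in none of the windows of these 4 genes. GC content was 54.4% for Tacr3, 64.0% for Gpr176 and 50.4% for Tnfrsf21, against 74.0% for Adrb1.

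Tacr3 (ENSMUSG00000028172, mm10 chr3:134829007-134934579, + strand, 5 exons) was highest in marginal cells in every capture. Its level there was 112 CPM in capture 1, 118 in capture 2 and 148 in capture 3, a mean of 126 ± 19.6 CPM (SD, n = 3). In spindle/root cells it stood at 53.3 CPM in capture 2 and 19.0 in capture 3, from 7 and 2 UMIs. In basal cells it was 2.77, 0 and 6.52 CPM, and in intermediate cells 2.60, 1.36 and 0.382 CPM. The lowest marginal capture was above the highest value of any other type, whereas the ranges of basal and intermediate cells overlapped. At a clustering resolution of 0.4 the lowest marginal capture stood at 101 CPM and the highest value elsewhere at 121 CPM. A UMI of Tacr3 was seen in 95 of 131 marginal cells (72.5%) against 8 of 1001 intermediate cells (0.799%). Cells with at least 3000 UMIs were thinned to that number, to remove the difference in depth, and shallower ones were left out. These were 3 marginal, 155 intermediate, 5 basal and 7 spindle/root cells. Tacr3 was then seen in 34 of 128 marginal cells (26.6%, 95% exact binomial interval 19.1 to 35.1%) and 4 of 846 intermediate cells (0.473%). It was seen in 1 of 25 spindle/root cells (4.00%, 0.101 to 20.4%), whose interval overlapped the marginal one. Basal cells gave 2 of 116 (1.72%), and erythroid cells 0 of 95, which allows up to 3.81%. Intervals here and below cover counting error only.

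In nuclei Tacr3 kept the marginal type in first place. Marginal nuclei held 147 CPM (95% Poisson interval 136 to 159), followed by spindle/root nuclei at 53.4 (32.2 to 83.4), basal nuclei at 39.6 (28.8 to 53.1) and intermediate nuclei at 14.4 (10.1 to 20.0). The intervals of spindle/root and basal nuclei overlapped, and those of the other neighbours in this order did not. At 1000 UMIs per nucleus it was seen in 12.8% of marginal, 5.56% of spindle/root, 3.81% of basal, 1.47% of intermediate and 0.415% of erythroid nuclei. B cell nuclei, also of another lineage, gave 2.96% (1.09 to 6.32%), above the intermediate share. That interval overlapped those of spindle/root (2.81 to 9.72%), basal (2.46 to 5.62%) and intermediate nuclei (0.915 to 2.25%). With 1 capture of nuclei there was no replicate check of these values.

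Tnfrsf21 (ENSMUSG00000023915, mm10 chr17:43016555-43089189, + strand, up to 6 exons) showed the same order with more UMIs behind it. Marginal cells held 430 CPM in capture 1, 484 in capture 2 and 490 in capture 3, a mean of 468 ± 32.8 CPM (SD, n = 3) from 702 UMIs. Spindle/root cells held 114 CPM in capture 2 and 123 in capture 3, and these values lay below every marginal value and above every basal one. Basal cells held 38.8, 14.3 and 16.3 CPM, and intermediate cells 6.94, 6.82 and 4.20 CPM. At a clustering resolution of 1.2, where the marginal type held 350 cells, the marginal mean was 296 CPM. The receptor was seen in 125 of 131 marginal cells (95.4%). At 3000 UMIs per cell it was seen in 90 of 128 marginal cells (70.3%, interval 61.6 to 78.1%), 3 of 25 spindle/root cells (12.0%), 5 of 116 basal cells (4.31%), 15 of 846 intermediate cells (1.77%) and 3 of 95 erythroid cells (3.16%). The share of intermediate cells was below that of erythroid cells, which belong to another lineage. The share of basal cells lay within the erythroid interval (0.656 to 8.95%), and the interval of spindle/root cells (2.55 to 31.2%) overlapped it. Whether the shares outside marginal cells reflect expression there was not tested.

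In nuclei Tnfrsf21 stood at 515 CPM (494 to 536) in marginal nuclei, 121 (102 to 144) in basal nuclei, 78.7 (52.3 to 114) in spindle/root nuclei and 40.5 (33.0 to 49.2) in intermediate nuclei. The intervals of basal and spindle/root nuclei overlapped, and the order of these types was the opposite of that in cells. Nuclei with at least 1000 UMIs were thinned to that number, and shallower ones, 54 of them marginal, were left out. Tnfrsf21 was then seen in 38.3% of 2537 marginal nuclei, 10.0% of 630 basal nuclei, 6.06% of 198 spindle/root nuclei, 4.42% of 1424 intermediate nuclei and 4.77% of 482 erythroid nuclei. The intermediate share thus did not exceed the erythroid one.

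Gpr176 (ENSMUSG00000040133, mm10 chr2:118277110-118373419, - strand, 3 exons) was also highest in marginal cells in every capture. It stood at 47.8 CPM in capture 1, 52.7 in capture 2 and 24.7 in capture 3, a mean of 41.8 ± 14.9 CPM (SD, n = 3) from 12, 41 and 11 UMIs. Capture 3 was the lowest for this gene and the highest for Tacr3. Basal cells held 2.77, 0 and 6.52 CPM and intermediate cells 0.867, 1.36 and 0.382 CPM, whereas spindle/root cells had 0 UMIs in captures 2 and 3. The lowest marginal capture lay above the highest value elsewhere, and the other 3 types overlapped. At a clustering resolution of 0.4, where spindle/root held 70 barcodes, the gene was highest in that type instead, at 40.6 ± 20.6 CPM (SD, n = 3). At 3000 UMIs per cell it was seen in 13 of 128 marginal cells (10.2%, interval 5.52 to 16.7%), 1 of 116 basal cells (0.862%) and 2 of 846 intermediate cells (0.236%). It was seen in 0 of 25 spindle/root cells, which allows up to 13.7% and so overlaps the marginal interval.

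Gpr176 in nuclei reached 188 CPM (175 to 201) in the marginal type, from 823 UMIs. Basal nuclei held 47.7 CPM (35.7 to 62.4), spindle/root nuclei 19.7 (7.91 to 40.6) and intermediate nuclei 1.203 (0.248 to 3.51), the last from 3 UMIs in 1473 barcodes. At 1000 UMIs per nucleus it was seen in 16.6% of marginal, 2.86% of basal, 2.02% of spindle/root, 0.140% of intermediate and 0.207% of erythroid nuclei, the last pair from 2 and 1 nuclei. The gene overlaps others in the annotation, so its counts are uncertain. Gm29232 covers its last 2321 bases on the same strand, was listed for nuclei but not for cells, and held 18 UMIs in marginal nuclei. The antisense gene 1700054M17Rik, which overlaps it over 3253 bases, held 0 UMIs in marginal cells and nuclei.

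Adrb1 (ENSMUSG00000035283, mm10 chr19:56722199-56733113, + strand, up to 3 exons) was not detected in any of the 4 SV types, in cells or nuclei. Marginal cells held 0 UMIs in every capture, which over the 131 cells allows up to 2.50 CPM (95% Poisson bound), and the 2591 marginal nuclei held 0, which allows up to 0.842 CPM. The bound was 0.550 CPM in intermediate cells and 2.70 CPM in basal cells. It was loosest for spindle/root, at 12.2 CPM in cells and 10.4 CPM in nuclei. Over all barcodes, filtered or not, the gene had 0, 1 and 1 UMIs in the 3 captures of cells and 1 in nuclei. The kept ones were 1 in a B cell, 1 in an unnamed cell and 1 in an unnamed barcode of the nucleus library. At this depth no receptor choice by SV type could be described for Adrb1.

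**Figure D1:**
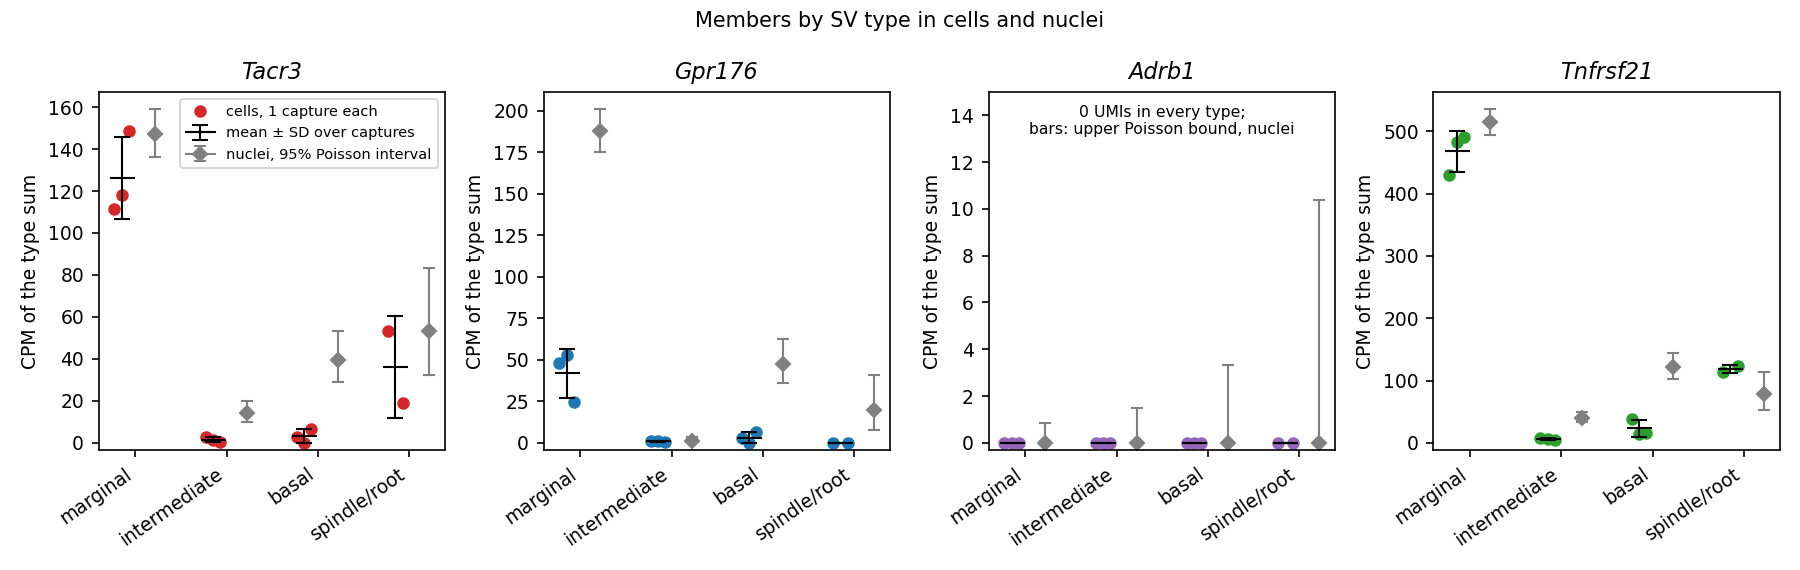
Level of each member (CPM of the summed UMIs of a type) in the 4 SV types. Coloured points are single captures of cells with their mean ± SD, and grey diamonds are nuclei with a 95% Poisson interval. Tacr3, Gpr176 and Tnfrsf21 are highest in marginal cells in all 3 captures and in nuclei, and Adrb1 is at 0 throughout.

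UMIs of the 3 detected receptors were counted cell by cell in the marginal type. Of the 131 marginal cells, 28 (21.4%) held UMIs of all 3, 74 (56.5%) of a pair, 25 (19.1%) of 1 and 4 (3.05%) of none. The median depth was 5610 UMIs in the 4 cells with none, 11267 in those with 1, 11373.5 in those with a pair and 12261 in those with all 3. Whether detection moved with depth was not tested. Tacr3 and Tnfrsf21 were found together in 93 cells, Gpr176 and Tnfrsf21 in 37 and Tacr3 and Gpr176 in 28. In marginal nuclei, at a median depth of 1393 UMIs, 83 of 2591 (3.20%) held all 3 and 805 (31.1%) held none.

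Marginal cells came from 3 clusters that differed in intermediate RNA, and Tacr3 and Tnfrsf21 were higher where it was lower. Dct, the melanin enzyme that marks intermediate cells, stood at 8057, 2696 and 293 CPM in clusters of 53, 44 and 34 cells. Over the same clusters Tacr3 was at 92.0, 148 and 192 CPM, Tnfrsf21 at 404, 482 and 698 CPM, and Lrp2, the marginal endocytic receptor megalin, at 2082, 2736 and 3495 CPM. Gpr176 was at 25.0, 63.4 and 62.7 CPM. Mitochondrial genes made up 28.3, 33.3 and 12.1% of the UMIs of these clusters, and the median depth was 14593, 11239.5 and 6633.5 UMIs. Capture 1 gave 11, 1 and 6 of their cells. The part of intermediate RNA, mitochondrial share and depth in these levels was not tested. An unnamed cluster of 343 cells, in which marginal markers led but too few were raised for a name, held Tacr3 at 21.9 CPM, Gpr176 at 11.0 and Tnfrsf21 at 75.6, which were 17.4%, 25.2% and 15.9% of the marginal levels. Lrp2 there stood at 16.5% of its marginal level, Kcnq1 at 18.2% and Kcne1 at 48.6%, and Dct at 6262 CPM.

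The UMIs in spindle/root cells came from only 1 of their 2 clusters. A cluster of 13 cells, led by P2rx2 and Lect1, held all 10 UMIs of Tacr3 (54.9 CPM), all 37 of Tnfrsf21 (203 CPM) and the single UMI of Gpr176. That cluster also held the marginal gene Lrp2 at 1400 CPM, and it was split from the same first cluster as the marginal cells. The other cluster, of 19 cells led by Epyc, held 0 UMIs of every member, with Lrp2 at 74.3 CPM. Its median depth was 4811 UMIs against 14133 in the cluster of 13 cells. A single UMI of Gpr176 does not set the clusters apart for that gene. In nuclei the 2 spindle/root clusters, led by Ceacam16 and Epyc and by Gm43154 and Masp1, held Tacr3 at 36.0 and 74.4 CPM, Tnfrsf21 at 87.5 and 68.2 CPM and Gpr176 at 20.6 and 18.6 CPM.

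Levels outside the marginal type were set beside those of marginal markers, to show whether receptor and marker RNA stood in the same proportion there. In basal nuclei Tacr3 stood at 26.9% of its marginal level, Gpr176 at 25.4% and Tnfrsf21 at 23.6%, within the 15.05 to 37.5% of the 8 marginal markers (median 27.2%). In intermediate nuclei Tacr3 at 9.79% and Tnfrsf21 at 7.87% lay within the markers' 2.89 to 21.9%, whereas Gpr176 at 0.640% lay below all 8. In spindle/root nuclei Gpr176 (10.5%) and Tnfrsf21 (15.3%) lay within 8.11 to 28.9%. Tacr3, from 19 UMIs, lay above that range at 36.3%, but within counting error of its upper edge.

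In whole cells some of these places differed. Intermediate cells held 0.945% of the marginal level of Tacr3, 2.06% of Gpr176 and 1.22% of Tnfrsf21, beside 0.967 to 4.80% for the markers. Gpr176, from 6 UMIs, lay within this range, and Tacr3, from 8 UMIs, could not be told from its lower edge. Basal cells held 1.74%, 5.05% and 4.45%, beside 4.78 to 9.03%, and the first 2 of these shares rest on 3 UMIs each. Tacr3 and Tnfrsf21 lay below this range, but within counting error of its lower edge. Pooled over captures, spindle/root cells held 26.1% of Tacr3 and 25.6% of Tnfrsf21, just below the markers' 27.4 to 56.2%, and 7.59% of Gpr176 from 1 UMI. Counting error of these spindle/root shares reached into the markers' range. The part of marginal RNA carried over into barcodes of other types was not tested.

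**Figure D2:**
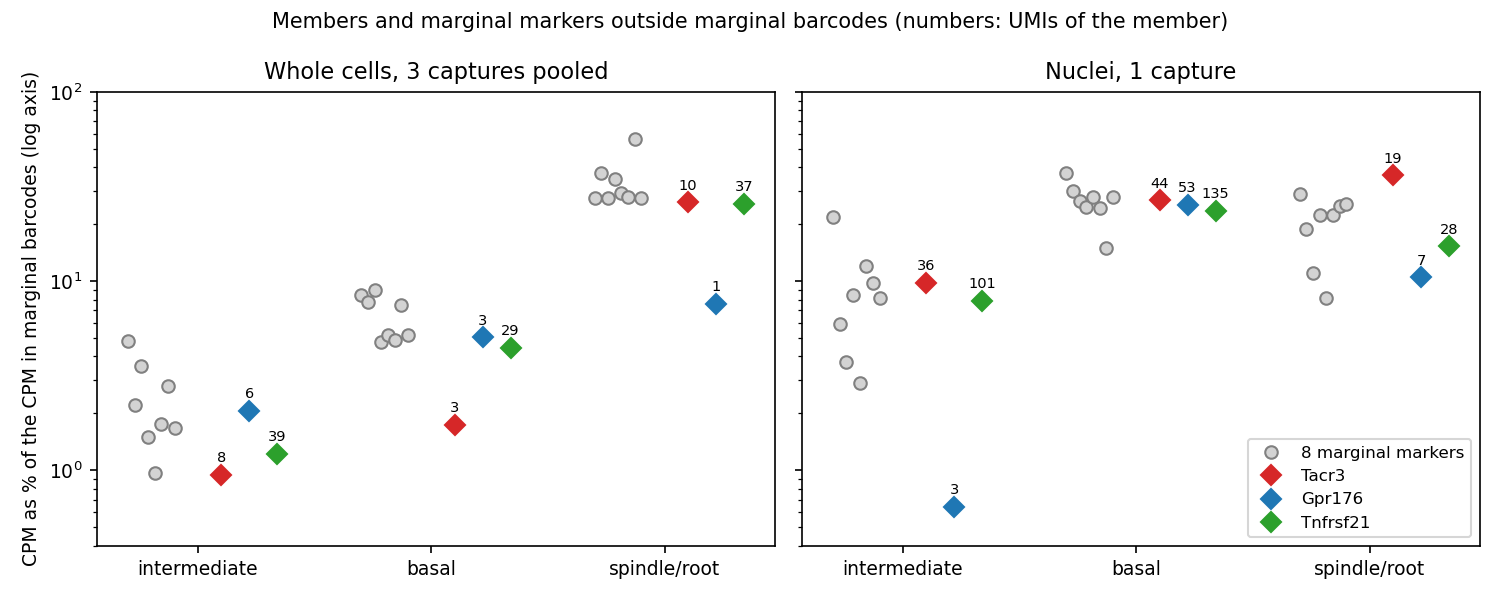
Level in the other SV types as a percent of the marginal level (log axis), for 8 marginal markers in grey and for the members in colour with the UMIs behind each. In basal nuclei the 3 members fall within the range of the markers, and in intermediate nuclei Gpr176 falls below it at 0.640%.

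Outside the SV types, erythroid cells held 0 UMIs of Tacr3 and Gpr176 and 12.8 CPM of Tnfrsf21, B cells 0, 0 and 7.30 CPM, and macrophages 4.44, 0 and 22.2 CPM, the latter from 1 and 5 UMIs. In nuclei the levels of other types reached those of SV types other than marginal. Reissner's membrane nuclei held Tnfrsf21 at 96.7 CPM (52.9 to 162), with Tacr3 and Gpr176 at 27.6 CPM from 4 UMIs each. Fibrocyte nuclei held Tnfrsf21 at 88.3 CPM (59.2 to 127), with Tacr3 and Gpr176 at 21.3 CPM from 7 UMIs each, and neutrophil nuclei held Tnfrsf21 at 64.0 CPM (31.9 to 114). These intervals of Tnfrsf21 all overlapped that of spindle/root nuclei. In the nucleus library, 3690 unnamed barcodes in 3 large clusters had Malat1, a nuclear RNA, at no more than 4503 CPM. They held Tacr3 at 32.4 CPM (21.98% of the level in marginal nuclei), Tnfrsf21 at 102 CPM (19.7%) and Gpr176 at 4.53 CPM (2.41%). Of the marginal markers there, Lrp2 stood at 19.9%, Kcne1 at 75.5% and Kcnq1 at 5.91%.

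Gpr176 differed from the other members in its balance between nuclei and cells. In the marginal type its CPM was 4.32 times as high in nuclei as in cells, against 1.17 times for Tacr3 and 1.08 times for Tnfrsf21. Among the 5618 genes with at least 30 UMIs in both, the median ratio was 0.918, and Gpr176 stood above 95.6% of them, Tacr3 above 61.5% and Tnfrsf21 above 58.1%. Leaving mitochondrial genes out of the totals gave ratios of 3.38, 0.912 and 0.844, with a median of 0.717 over all genes, so the direction for Tacr3 and Tnfrsf21 rests on the total used and their places among genes do not. Of the marginal potassium channel subunits, Kcnq1 stood above 96.0% and Kcne1 above 43.6%. The ratio compares 3 pooled captures with 1 and was not tested, and the gene lists of the libraries differed.

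**Figure D3:**
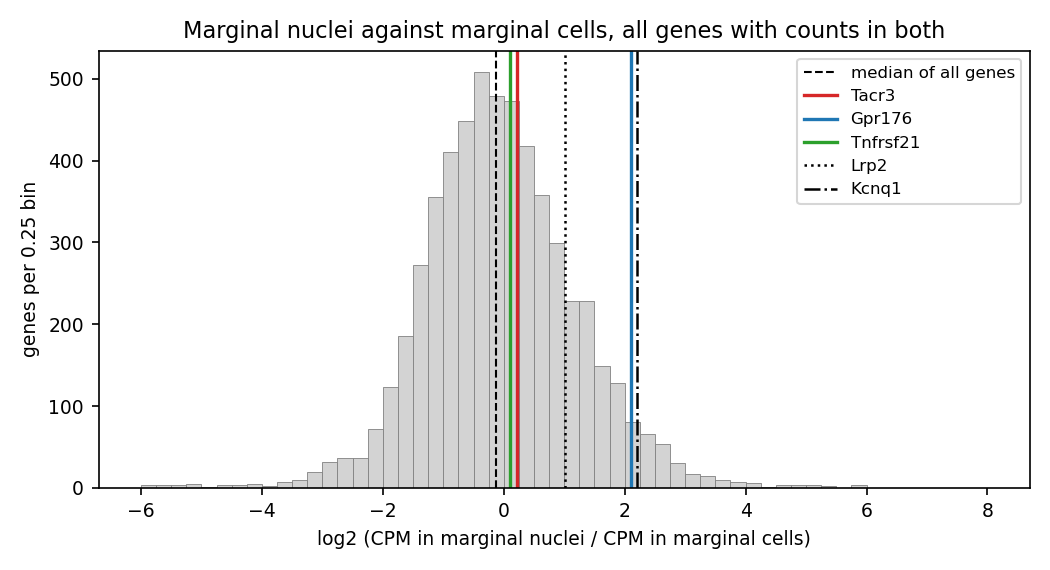
Ratio of CPM in marginal nuclei to CPM in marginal cells (log2 axis) over 5618 genes, with their median dashed. Tacr3 and Tnfrsf21 lie close to the middle of the distribution, and Gpr176 lies in its upper tail beside Kcnq1.

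Genes whose pattern was most like each member were ranked by Pearson's r of log2(CPM + 1) over the 11 sums of a capture and type, among 8688 genes with at least 50 UMIs in cells and in nuclei. These sums share captures and library depth, and no p is given. For Tnfrsf21 the 3 leading genes were Atp1b2 (r = 0.998), the beta2 subunit of the Na,K-ATPase, Atp13a5 (0.997), a P-type ATPase, and Kcnq1 (0.996), all of them markers used to name the marginal type. For Tacr3 they were Pacsin2 (0.980), Fam13a (0.976) and Casz1 (0.973), a transcription factor that stood at 40.4 CPM in marginal cells and 32.4 in spindle/root cells. For Gpr176 they were Epha5 (0.965), an ephrin receptor, St5 (0.957) and Cmtm4 (0.954). In nuclei Epha5 stood at 211 CPM in the marginal type and at no more than 64.7 in the others. St5 stood at 165 CPM in marginal and 135 in intermediate nuclei. Cmtm4 was not highest in marginal nuclei, at 56.6 CPM against 64.8 in basal nuclei. Between the members, r was 0.942 for Tacr3 with Tnfrsf21, 0.701 for Tacr3 with Gpr176 and 0.684 for Gpr176 with Tnfrsf21.

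The rest of the signalling pathways was taken from 10 lists of 125 genes, of which 43 passed the filter on low counts. Sums per capture and type were tested with edgeR, each type against the mean of the other 3. In marginal cells 10 of the 43 were higher and 4 lower at an adjusted p under 0.05, against 15.2% and 10.4% of all 7177 genes. In intermediate cells 11 were higher and 13 lower (17.7% and 18.2% of all genes), in basal cells 9 and 6 (14.8% and 10.9%), and in spindle/root cells 4 and 5 (11.8% and 7.11%). The list's median log2 difference was 0.03 in marginal, -0.20 in intermediate, 0.03 in basal and 0.04 in spindle/root cells, beside 0.04, 0.01, -0.00 and -0.02 over all genes. Of the members, 3 of 4 passed the filter, Tacr3 and Gpr176 only through their level in marginal cells and Tnfrsf21 also through that in spindle/root cells. They were fitted among the 7177 genes and count in the shares over all genes, but no test of them is given. Of the list genes, Adra1b, Mme and Gnai1 passed only through their level in basal cells, so no p is given for them, though they stay in the counts. Other list genes high in a single type may have passed in the same way. List genes stayed out of the clustering, but genes that vary with them did not, so these p-values describe differences between types found in the same cells.

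The ligands and sister receptors of Tacr3 were all but absent. Tac1, Tac4 and Tacr1 had 0 UMIs in the sums of cells, Tac2 had 1 and Tacr2 had 2. In nuclei of the 4 types Tac2, the neurokinin B precursor, had 3 UMIs, Tac1 and Tacr2 had 1 each, and Tac4 and Tacr1 had 0. Mme, the peptidase neprilysin that degrades tachykinins among other peptides, was the only gene of its list of 6 to be tested. It was higher in basal cells, at 44.4, 40.0 and 45.6 CPM in the 3 captures against a mean of 5.80 in the other types. The difference was 3.38 ± 0.45 on the log2 scale (SE, edgeR), for a gene that passed the filter only through basal cells. It was lower in intermediate cells at 1.14 ± 0.345 CPM, a call lost without capture 2.

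Among adrenergic receptors other than Adrb1, Adra1b, a Gq-coupled alpha-adrenergic receptor, was highest in basal cells. It was at 52.7, 59.97 and 16.3 CPM in basal cells of captures 1, 2 and 3, and at 1.29 CPM or less in every capture of marginal and intermediate cells. Spindle/root cells held 22.9 and 9.50 CPM, from 3 and 1 UMIs. Adra1b was higher in basal cells by 4.40 ± 0.49 log2 units (SE, edgeR), and it too passed the filter only through basal cells. Basal nuclei held 139 CPM against a mean of 5.56 in the others. Adra1a, Adra1d, Adra2a, Adra2b and Adrb3 had 0 UMIs in the sums of cells and Adra2c had 4. In nuclei Adra1a had 11 UMIs and Adrb3 had 3. Of the enzymes that make catecholamines, Th and Dbh had 0 UMIs in cells and nuclei of these types, and Ddc had 0 in cells and 10 in nuclei.

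Of the Gq arm, through which Tacr3 signals, 8 of 11 list genes were tested. Itpr1, Itpr2 and Gna14 were higher in marginal cells and none was lower, against 15.2% and 10.4% of all 7177 genes. Itpr2, an inositol trisphosphate receptor that releases stored calcium, stood at 274 ± 12.5 CPM (SD, n = 3) against a mean of 46.3 in the other types, or 2.66 ± 0.15 log2 units higher (SE, adjusted p = 1.0e-28, edgeR). Itpr1 stood at 656 ± 85.7 CPM and was 1.27 ± 0.10 log2 units higher (adjusted p = 1.6e-18, edgeR). Gna14, a Gq-class alpha subunit, was higher in marginal cells by 1.01 and in basal cells by 2.29 log2 units, and the marginal call held in 11 of 17 alternatives and was lost, among others, by DESeq2 and without capture 2 or 3. Itpr3 was higher in basal cells by 2.23 log2 units. Plcb4, a phospholipase C, was higher in spindle/root cells by 1.92 log2 units, lost without capture 2, and lower in basal cells by -1.14, which held in 11 of 17 alternatives and was lost, among others, without capture 2 or 3. Gnaq and Gna11, the widely expressed alpha subunits, were not called in marginal cells, at 96.4 ± 6.73 and 66.4 ± 15.8 CPM. Gnaq was lower in spindle/root cells by -1.25 log2 units, a call that held in 8 of 17 alternatives and was lost without capture 2 or 3. In intermediate cells Gna14 was lower by -4.16, Itpr2 by -1.44 and Itpr1 by -1.30 log2 units, calls that held in 17 of 17 alternatives. Gnaq was higher there by 0.57, which held in 13 of 17, was reversed in sign in 1 and was lost, among others, without TMM scaling. Each type was set against the mean of the others, so the low intermediate levels enter the marginal differences.

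Regulators of G protein signalling gave the largest difference of the lists in marginal cells. Rgs4, which shortens Gq and Gi signals, was at 1028, 1013 and 1108 CPM in marginal cells of captures 1, 2 and 3 and at no more than 236 CPM in any other of the 11 sums. It was higher by 3.49 ± 0.12 log2 units (SE, adjusted p = 3.3e-40, edgeR). In nuclei it stood at 596 CPM in the marginal type against a mean of 138 in the others. Gnaz, the alpha subunit reported for Gpr176, did not pass the filter and stood at 12.7 ± 2.79 CPM (SD, n = 3) in marginal cells, 5.69 ± 0.470 in intermediate cells and 1.90 ± 3.30 in basal cells. Rgs16, another regulator of G protein signalling, had 1 UMI in the sums of cells and 0 in nuclei. Of 3 receptor kinases and arrestins tested, Arrb1, an arrestin, was higher in marginal cells at 169 ± 18.6 CPM and by 0.73 log2 units, a call lost at a clustering resolution of 0.4. Gnai1 was higher in basal cells, at 30.1 ± 10.8 CPM against a mean of 0.366 in the other types.

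In the Gs arm, through which Adrb1 would signal, 3 of 11 list genes were tested and each was highest in a different type. Adcy6, an adenylyl cyclase, was higher in marginal cells by 1.53 ± 0.29 log2 units (SE, adjusted p = 8.7e-06, edgeR), at 56.1 ± 5.21 CPM. Adcy2 was higher in intermediate cells by 1.73 ± 0.31 (SE, adjusted p = 1.9e-06, edgeR), at 30.2 ± 3.38 CPM, with 259 CPM in intermediate nuclei. Gnas, which encodes Gs alpha, was highest in spindle/root cells at 1131 ± 133 CPM (SD, n = 2), higher by 0.84 log2 units, and lower in intermediate cells by -0.54 log2 units. It was also lower in basal cells, a call that held in 13 of 17 alternatives and was lost, among others, without capture 2 or 3. It was at 743 ± 48.7 CPM in marginal cells, with no call there.

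Of the 24 other orphan receptors listed beside Gpr176, 8 were tested. Gpr143, Gpr37, Gpr137b and Gpr137 were higher in intermediate cells while Gprc5a and Gprc5b were lower, against 17.7% and 18.2% of all genes. The call of Gpr137 held in 11 of 17 alternatives and was lost, among others, by DESeq2, without TMM scaling and without capture 1 or 2. Gpr143, the receptor of pigment cells mutated in ocular albinism, stood at 29.3 ± 2.47 CPM and was higher by 3.34 ± 0.58 log2 units (SE, adjusted p = 1.2e-06, edgeR). Gpr37 stood at 230 ± 34.6 CPM, higher by 2.53 log2 units, and was lower in spindle/root cells at 12.4 ± 4.06 CPM (n = 2). In basal cells Gpr37 was also higher, by 0.97 log2 units, a call that held in 16 of 17 alternatives and was reversed in sign in 1. Gpr146 and Gprc5b were higher in marginal cells, Gpr146 at 115 ± 9.97 CPM and by 1.39 ± 0.20 log2 units (SE, adjusted p = 1.1e-08, edgeR). Gprc5a was higher in spindle/root cells at 37.1 ± 12.2 CPM (n = 2) and had 0 UMIs in intermediate cells.

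Of the TNF receptor family, 5 of the 20 genes listed beside Tnfrsf21 were tested. None was higher in marginal cells, against 15.2% of all 7177 genes, and with 5 genes tested no call is near that share. Tnfrsf19 and Tnfrsf11b (osteoprotegerin) were higher in basal cells. Tnfrsf19 stood at 64.2 ± 13.4 CPM in basal cells and was 1.52 ± 0.26 log2 units higher (SE, adjusted p = 1.1e-06, edgeR), and at 10.9 ± 6.18 CPM in marginal cells it was lower, a call lost without capture 2. App, a ligand of DR6, was present in all 4 types, at 880 ± 4.95 CPM in marginal, 621 ± 28.6 in intermediate, 770 ± 41.9 in basal and 1238 ± 179 in spindle/root cells (n = 2 for the last). It was higher in spindle/root cells by 0.49 log2 units and lower in intermediate cells by -0.27, calls that held in 14 and 13 of 17 alternatives, and both were lost, among others, without capture 2. Its relative Aplp2 was higher in intermediate cells by 1.14 and lower in spindle/root cells by -1.67 log2 units. In marginal cells Aplp2 was also higher, by 0.35 log2 units, which held in 13 of 17 alternatives and was lost, among others, without capture 2 or 3. Mmp14, a membrane protease, was higher in intermediate cells by 2.11 log2 units, and lower in marginal cells by -1.11, the latter held in 11 of 17 alternatives and lost, among others, without capture 2 or 3. Casp6, a caspase placed downstream of DR6 in neurons, was higher in marginal cells by 1.15 ± 0.30 log2 units (SE, adjusted p = 0.0019, edgeR), at 41.2 ± 1.44 CPM, and this call too was lost without capture 2.

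**Figure D4:**
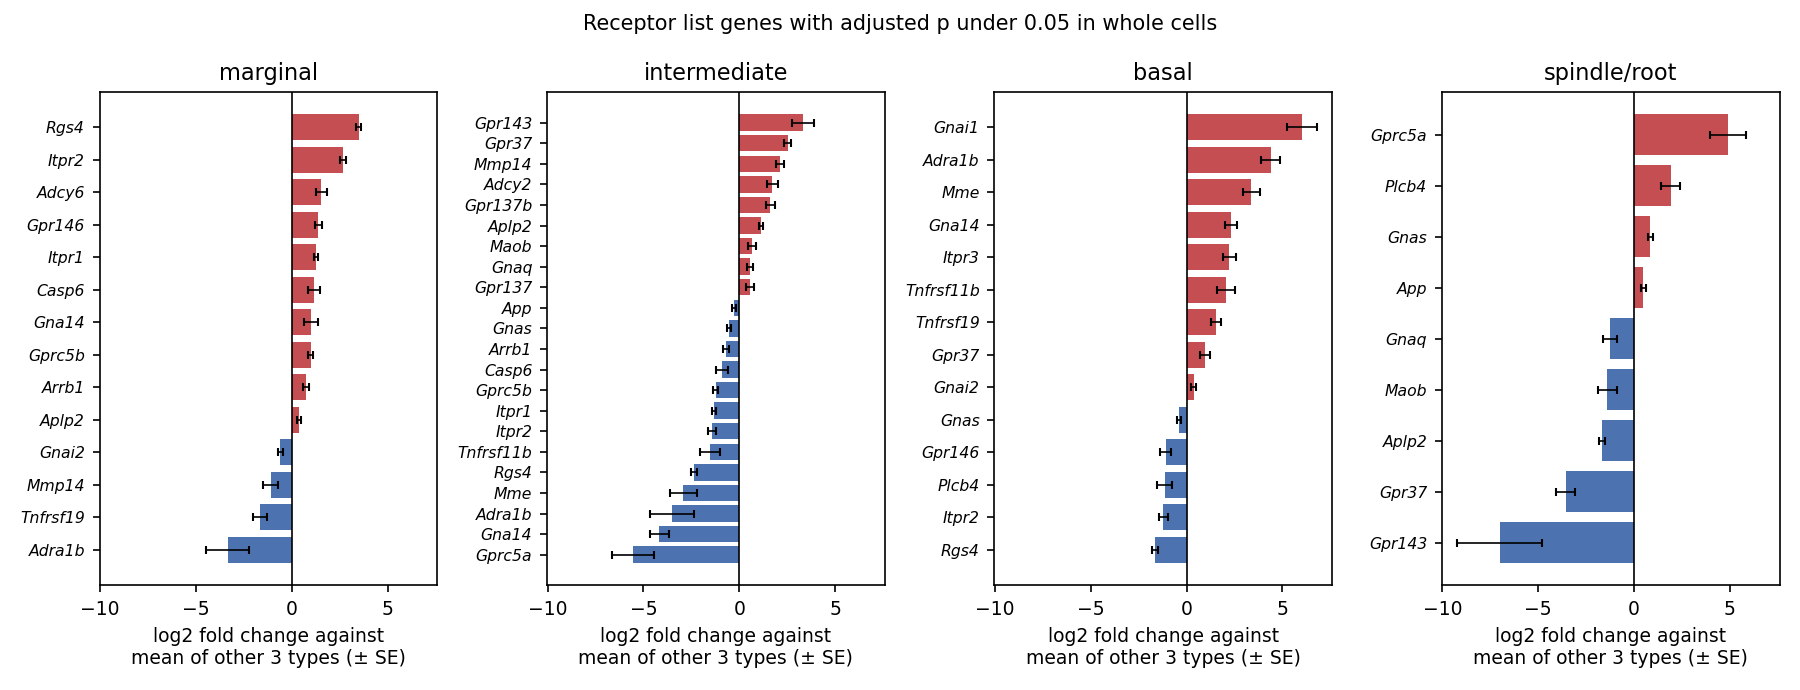
Log2 fold change ± SE of list genes with an adjusted p under 0.05, each type against the mean of the other 3 (edgeR, whole cells). 2 genes not reported here are left out. Rgs4 and Itpr2 lead in marginal cells, Gpr143 and Gpr37 in intermediate cells, and Adra1b is among the genes higher in basal cells, and the bars of Gprc5a in intermediate and Gpr143 in spindle/root cells, both at 0 UMIs there, depend on the prior count.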

How the data were processed

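The authors prepared 10x Genomics 3' libraries, and processed the reads with Cell Ranger (2.0.0 in the submitters' processing notes) and the mm10 genome. Whether intron reads were counted for nuclei is not given in the sources used here. The deposited values are raw UMI counts per gene and barcode. Members and lists were chosen with earlier results of these data known.

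Barcodes were kept from 200 detected genes upward, and Scrublet (scanpy 1.11.5) doublets were removed at 0.8% for each 1000 barcodes, which left 377, 1314 and 1461 cells and 9723 nuclei. Kept cells had a median of 38.6, 42.5 and 45.4% mitochondrial UMIs, nuclei 8.23%. Clustering used Seurat 5.3.0 with 2000 variable genes, 37 components for cells and 40 for nuclei, and a resolution of 0.8. This gave 12 first clusters of cells. A cluster of at least 60 barcodes with 3 raised markers in more than a single class was clustered again with 10 components. All marginal cells and the spindle/root cluster of 13 cells were split in this way from the same first cluster, and all basal cells from another. Cells gave 20 final clusters, and 1606 of the kept cells and 3779 of the nuclei stayed unnamed. A cluster took the class of the highest mean log2 ratio with at least 3 markers raised 2 times in 10% of its barcodes, if a second class with 3 raised markers stayed under 0.67 of it and no other class had more markers among its top 10 genes. That condition on the second class was added after clusters had been seen and before member levels were computed. The top genes of marginal clusters in cells included Tacr3, Gpr176 and Tnfrsf21, so a view of the clusters was not blind to the members. Counts were summed per capture and type with at least 5 cells, which gave 11 sums in place of the 12 planned, and tested in R 4.3.3 with edgeR 4.0.16 (quasi-likelihood test, TMM scaling, capture as a block, Benjamini-Hochberg adjustment over 7177 genes). Captures are pools of mice, and with capture as a block the p-values rest on how differences between types vary from pool to pool. The test was first run on simulated data.

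Same-capture deviations from the type means correlated at 0.00124 to 0.212 over 15 pairs of sums, and those of different captures at -0.206 to 0.0416 over 30 pairs. Sums of a capture come from the same animals, so the block was kept. Genes were named by a fixed rule: the members, the 3 genes most like each, the tachykinin and adrenergic genes, App, Gnas, Gnaq, Gna11, Gnaz, Rgs16 and Casp6, and per type up to 5 list genes with the largest and 3 with the lowest fold change among those called and going one way in every capture. Other genes were named after their values were seen. Alternatives covered clustering, filters, scaling, tools and left-out captures. Sequences are from RefSeq. Results of 2 list genes, which stay in the counts, are not reported here.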

Additional observations from a re-analysis of the deposited data

How the results depend on the processing

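In the type where each was highest, Tacr3, Gpr176 and Tnfrsf21 moved by less than 1 SD in 34 of 39 alternatives. The marginal type was highest in 38 of 39. The exception was Gpr176 at a resolution of 0.4. There its spindle/root level of 40.6 CPM was set against the main marginal mean of 41.8 and counted as unmoved. The lowest marginal capture stood above the highest value elsewhere in 37 of 39, with exceptions for Tacr3 and Gpr176 at that resolution. Leaving out a capture cannot move these means by 1 SD, and a minimum of 10 barcodes per sum changed no sum. The outcomes of those alternatives were thus fixed in advance in all of these counts. At a resolution of 1.2 Tacr3 was at 84.7 and Tnfrsf21 at 296 CPM. With CPM taken without mitochondrial genes Tacr3 was at 173, Gpr176 at 57.0 and Tnfrsf21 at 641 CPM. Leaving out each capture gave 115 to 133 CPM for Tacr3, 36.3 to 50.3 for Gpr176 and 457 to 487 for Tnfrsf21. Adrb1 had no UMIs in these types, so no alternative could give a type for it.

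Of the counts of list genes, 120 of 136 alternatives stayed within 1.5 times. The alternative with at least 10 barcodes per sum repeated the main sums, so its counts and calls had to be the same. The number lower in marginal cells was 2 at a resolution of 0.4 and 7 at 1.2. The number lower in intermediate cells was 20 without TMM scaling. The number lower in basal cells was 3 at a resolution of 0.4 and 3 with at least 500 genes per barcode. The number lower in spindle/root cells was 8 at a resolution of 0.4, 3 with 20 components, 3 with the limit on a second class applied whatever its markers (an alternative added after seeing the data), 2 by DESeq2 and 3 without TMM scaling. Leaving out each capture gave 2 to 5 genes lower in marginal, 8 to 13 lower in intermediate, 3 to 5 lower in basal, 2 to 5 higher in spindle/root and 2 to 5 lower in spindle/root cells. The lowest values came without capture 2 for marginal, intermediate and spindle/root (higher), without capture 2 or 3 for basal and without capture 3 for spindle/root (lower). Without capture 2 or 3 a single spindle/root sum remained in the fit, and capture 2 had the most UMIs in every SV type. The part of this in the lower counts was not tested.

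Without TMM scaling the median of all genes moved to -0.32 in intermediate and 0.22 in spindle/root cells, and the share of calls that were higher went from 49.4 to 22.6% and from 62.4 to 78.6%. Without the replicate block the counts were 10 higher and 4 lower in marginal, 11 and 13 in intermediate, 8 and 5 in basal and 5 and 5 in spindle/root cells. Depth limits what can be said of Adrb1, and spindle/root values in cells rest on 15 and 13 cells of captures 2 and 3.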

Other observations

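Other members of the pathways differed between nuclei and cells of the marginal type. Rgs4 in marginal nuclei stood at 0.571 times its CPM in marginal cells, above 26.8% of genes, and Arrb1 at 0.672 times, above 34.3%. Itpr2 stood at 3.15 times, above 91.5% of genes, and Itpr1 at 1.97 times, above 81.1%. These values have no replicate for nuclei and were not tested.

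The marginal nuclei fell into 2 clusters, of 2155 and 436 barcodes. Tacr3 stood at 143 and 159 CPM in them, Tnfrsf21 at 476 and 610 CPM, and Gpr176 at 203 and 151 CPM. Mitochondrial genes made up 4.15 and 13.4% of their UMIs and Malat1 161147 and 74502 CPM. Gpr176 was thus lower, and Tnfrsf21 higher, in the cluster with less Malat1, with 95% Poisson intervals that did not overlap, and the part of cytoplasmic RNA in this difference was not tested.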
